A study of Homo sapiens with 6 samples.

Results

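The TCA cycle enzymes described here were 9 genes, CS, IDH1, IDH2, IDH3A, IDH3B, OGDH, SUCLG1, FH and MDH2, out of 57905 genes in the count table and 16622 genes tested. They were a fixed list, matched by symbol in the authors' expression table and by Ensembl identifier in the count table. The symbol matched 8 of them, and IDH3A, which has no row in the expression table, was matched to its Ensembl identifier, ENSG00000166411, through GENCODE 44. All 9 passed the filter on low counts. The libraries came from NALM6, an established human B-ALL (B cell acute lymphoblastic leukemia) line, and thus from a single genetic background. Of the libraries, 3 were from cells treated with the solvent DMSO, 3 were from cells treated with 500 nM of THZ1, a covalent inhibitor of the transcriptional kinase CDK7, and both treatments lasted 24 h. The study asked whether THZ1 disturbs the metabolism of leukemia cells, and whether enzymes that depend on c-MYC are part of it.

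The TCA cycle is the ring of mitochondrial reactions that oxidizes acetyl-CoA, passes the electrons to the respiratory chain and supplies carbon skeletons for lipids, nucleotides and amino acids. Citrate synthase (CS) opens it, isocitrate dehydrogenases and the 2-oxoglutarate dehydrogenase complex carry out its oxidative decarboxylations, succinyl-CoA ligase (SUCLG1 is its alpha subunit) makes a nucleoside triphosphate, and fumarase (FH) and malate dehydrogenase 2 (MDH2) close the ring. IDH3A and IDH3B are subunits of the NAD-dependent isocitrate dehydrogenase of the cycle, whereas IDH2 is the mitochondrial and IDH1 the cytosolic NADP-dependent enzyme. Dividing lymphoid cells draw on the cycle both for energy and for biosynthesis.

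Between 11015480 and 11164840 counts fell on genes in each library with DMSO, and between 7876402 and 8314306 with THZ1, so that depth and treatment cannot be told apart. Counts were scaled by TMM and are given as CPM, counts per 1000000 counts of the scaled library, and the limit that a count of 0 allows, 3 counts, was no more than 0.253 CPM in a DMSO library and 0.415 CPM in a THZ1 library (counting error only). The summed level of 10 B-lineage markers (PAX5, VPREB1 and others) was 3570 to 3840 CPM with DMSO and 1670 to 1760 CPM with THZ1. All 10 passed the filter, as did 4 of 5 myeloid, 2 of 4 stromal, 0 of 6 T cell and 0 of 3 erythroid markers. The 5 myeloid markers summed to 3.88 to 4.63 CPM with DMSO and 18.5 to 20.1 CPM with THZ1, and the 4 stromal markers to 11.4 to 13.0 and 18.7 to 20.6 CPM. CD8A was at 0 in all 6 libraries. The part of these shifts in the values of the enzymes was not tested. In bulk RNA, fewer cells and less RNA per cell cannot be told apart, and each value is a share of its library and not an amount per cell.

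The promoters of the enzymes were read from RefSeq on GRCh38.p14, as the 250 bases before each annotated start, because the enzymes are read out together here and the study asks about c-MYC, a factor that binds the E-box CACGTG. Entries were found for 8 of the 9 genes, with 2 starts for IDH1, and OGDH was not matched. The 6 sequences shown are those of the gene that rose (IDH3B), the matched genes with the smallest falls (MDH2 and SUCLG1) and the largest falls (FH and IDH2), and CS, which opens the cycle. Capitals mark 3 motifs on either strand. The first is the GC box GGGCGG, which Sp1-type factors bind. The second is CCAAT, bound by NF-Y. The last is CCGGAAG, a motif of ETS factors.
IDH3B, chr20:2664217-2664466, minus strand: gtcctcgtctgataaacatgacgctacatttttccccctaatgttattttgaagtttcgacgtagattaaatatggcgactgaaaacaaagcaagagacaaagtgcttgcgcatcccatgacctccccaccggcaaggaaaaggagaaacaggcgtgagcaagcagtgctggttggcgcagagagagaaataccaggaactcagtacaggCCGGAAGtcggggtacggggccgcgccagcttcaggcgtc
MDH2, chr7:76047856-76048105, plus strand: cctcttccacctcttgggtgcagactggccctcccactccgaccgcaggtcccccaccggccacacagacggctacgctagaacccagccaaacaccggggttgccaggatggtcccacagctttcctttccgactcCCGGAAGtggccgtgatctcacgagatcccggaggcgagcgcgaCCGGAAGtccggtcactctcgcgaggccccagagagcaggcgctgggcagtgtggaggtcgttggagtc
CS, chr12:56300331-56300580, minus strand: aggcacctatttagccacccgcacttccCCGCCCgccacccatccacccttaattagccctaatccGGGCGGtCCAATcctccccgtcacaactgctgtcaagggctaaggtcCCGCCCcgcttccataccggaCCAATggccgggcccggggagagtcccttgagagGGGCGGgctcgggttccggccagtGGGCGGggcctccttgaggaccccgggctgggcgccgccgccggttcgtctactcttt
FH, chr1:241519756-241520005, minus strand: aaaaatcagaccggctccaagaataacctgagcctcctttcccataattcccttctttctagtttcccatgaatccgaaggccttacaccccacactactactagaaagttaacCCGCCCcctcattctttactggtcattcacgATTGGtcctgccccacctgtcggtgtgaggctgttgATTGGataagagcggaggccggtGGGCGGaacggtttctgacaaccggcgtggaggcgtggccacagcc
SUCLG1, chr2:84459281-84459530, minus strand: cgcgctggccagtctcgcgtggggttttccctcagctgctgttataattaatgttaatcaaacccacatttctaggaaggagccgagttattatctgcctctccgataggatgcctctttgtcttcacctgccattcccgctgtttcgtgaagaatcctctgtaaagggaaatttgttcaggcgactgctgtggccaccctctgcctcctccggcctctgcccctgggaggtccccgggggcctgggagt
IDH2, chr15:90100622-90100871, minus strand: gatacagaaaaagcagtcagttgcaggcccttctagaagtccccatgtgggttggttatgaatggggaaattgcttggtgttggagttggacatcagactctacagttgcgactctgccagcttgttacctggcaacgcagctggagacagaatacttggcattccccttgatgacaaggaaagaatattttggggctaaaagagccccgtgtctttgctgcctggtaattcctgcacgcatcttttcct

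The windows of SUCLG1 and IDH2, which fell by 0.57 and 2.19 on the log2 scale, held none of the 3 motifs. The ETS letters stood in 2 of the 9 windows, those of IDH3B and MDH2, against 8.52% of all 35116 promoter windows of the same length. The GC box letters were found in 5 of the 9 windows (CS, FH, IDH3A and both starts of IDH1), against 42.6% of all windows. The CCAAT letters were found in 3 (CS, FH and 1 start of IDH1), against 32.0%. None of the 9 windows held the E-box letters CACGTG, which 6.34% of all windows held, nor TATAAA of the TATA box (10.7%) or the cAMP response element TGACGTCA (1.65%). Both strands were searched, and the letters of one motif were allowed to overlap those of another. These matches describe the letters of the windows and were not tested as binding sites. Whether each annotated start is the main start of its gene, or the one that NALM6 cells use, was not tested. The IDH2 window had the lowest GC content of the 9, 48.4%, against a median of 58.0% over all windows. Motifs absent from a window may thus lie near another start of the gene.

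Of the 9 enzymes, 8 were lower and 1, IDH3B, was higher after THZ1 treatment at an adjusted p-value below 0.05 (quasi-likelihood test of edgeR, Benjamini-Hochberg adjusted over all 16622 genes tested). Over all genes tested, 41.1% were called lower and 43.5% higher by the same rule. The falls were largest for OGDH, IDH2 and FH. These 3 also passed the log2 fold change of 1.5 in size used by the study, as 12.9% of all genes did downward. FH did not reach 1.5 in size with upper quartile factors (−1.45), and IDH3A did with library sizes alone (−1.55). The median log2 fold change of the 9 enzymes was −1.13, and the median of all genes tested was 0.03. FH and IDH2 were named by the study from the same libraries, so their direction here is not independent evidence. For each of the 9, all libraries of one treatment lay above all libraries of the other, as they did for 84.7% of all genes tested.

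**Figure D1:**
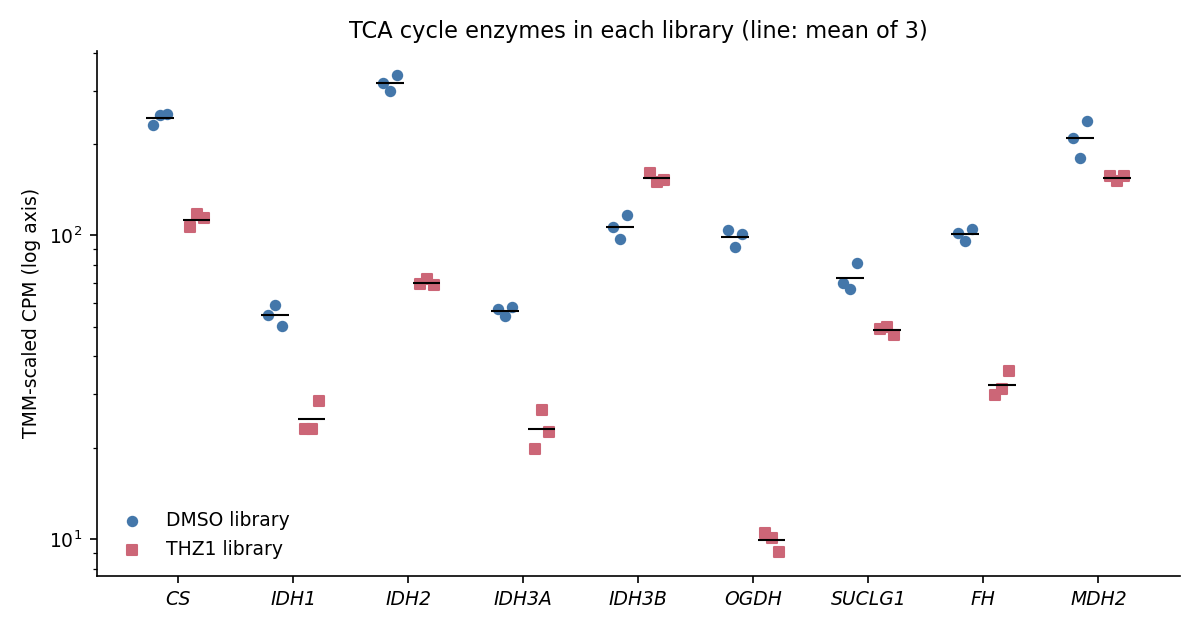
TMM-scaled CPM (log axis) of the 9 TCA cycle enzymes in each of the 3 DMSO-treated (circles) and 3 THZ1-treated libraries (squares), with a line at each mean. The THZ1-treated libraries lie below the DMSO-treated ones for 8 genes and above them for IDH3B, and OGDH, at 9.91 CPM with THZ1, lies farthest down.

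CS, the citrate synthase gene, lies on chromosome 12 from 56665483 to 56694175 (GRCh37, minus strand, 11 exons). It had 232, 249 and 251 CPM in the DMSO-treated libraries and 107, 117 and 114 CPM in the THZ1-treated libraries. Every THZ1-treated library was below every DMSO-treated library. CS fell from 244 ± 10.8 to 113 ± 5.42 CPM (SD, n = 3 libraries each), with a log2 fold change of −1.11 (SE, the standard error, 0.07, edgeR adjusted p = 2.1e-15). CNPY2-AS1 overlaps CS on the opposite strand and held 175 to 373 counts, against 812 to 3042 for CS, and the strand setting of the counting is not given in the sources used here.

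The isocitrate dehydrogenase genes moved in different directions. IDH2, on chromosome 15 from 90626277 to 90645709, had 317, 299.7 and 338 CPM with DMSO and 69.0, 71.7 and 68.8 CPM with THZ1. IDH2 kept 21.9% of its level, from 318 ± 19.4 to 69.9 ± 1.60 CPM (n = 3 each), with a log2 fold change of −2.19 (SE 0.07, edgeR adjusted p = 2.1e-22). Only 5.25% of all genes tested had a lower log2 fold change. IDH1, the cytosolic enzyme on chromosome 2 from 209100953 to 209130798, had 54.6, 58.8 and 50.3 CPM with DMSO and 23.1, 23.1 and 28.6 CPM with THZ1. Its groups stood apart, with a log2 fold change of −1.13 (SE 0.10, edgeR adjusted p = 1.3e-11). IDH1-AS1, on the opposite strand, held only 7 to 12 counts per library.

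IDH3A encodes the catalytic alpha subunit of the NAD-dependent enzyme and lies on chromosome 15 from 78423840 to 78464287. It had 57.4, 54.3 and 58.1 CPM with DMSO and 19.9, 26.6 and 22.6 CPM with THZ1. The highest THZ1-treated library was below the lowest DMSO-treated library, and the log2 fold change was −1.30 (SE 0.10, edgeR adjusted p = 4.7e-13). ACSBG1 overlaps IDH3A on the opposite strand and held 427 to 445 counts with DMSO and 92 to 105 with THZ1, against 662 to 694 and 151 to 192 for IDH3A, and the part of such reads in IDH3A was not tested. IDH3B encodes the beta subunit of the same enzyme and lies on chromosome 20 from 2639041 to 2644865. It had 107, 97.2 and 117 CPM with DMSO and 160.0, 150.5 and 153 CPM with THZ1. The lowest THZ1-treated library was above the highest DMSO-treated library, in the opposite order to IDH3A. IDH3B rose from 107 ± 9.88 to 154 ± 4.99 CPM (n = 3 each), with a log2 fold change of 0.53 (SE 0.08, edgeR adjusted p = 1.3e-07). The rise was kept under each scaling tried, at 0.28 with library sizes alone and 0.72 with upper quartile factors.

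OGDH encodes the E1 subunit of the 2-oxoglutarate dehydrogenase complex, which binds thiamine pyrophosphate and decarboxylates 2-oxoglutarate, and lies on chromosome 7 from 44646171 to 44748665. It had 104, 91.4 and 101 CPM with DMSO and 10.5, 10.1 and 9.09 CPM with THZ1. The 68 to 80 counts left in the THZ1-treated libraries were well above the floor of 3 counts. OGDH kept 10.1% of its level, from 98.7 ± 6.49 to 9.91 ± 0.735 CPM (n = 3 each), with a log2 fold change of −3.31 (SE 0.11, edgeR adjusted p = 5.6e-23). Of all genes tested, 1.20% had a lower log2 fold change. No annotated gene overlaps OGDH on either strand.

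SUCLG1, on chromosome 2 from 84650652 to 84687169, had 69.5, 66.7 and 81.2 CPM with DMSO and 49.3, 50.1 and 46.9 CPM with THZ1. The groups were apart, but the fall was among the smallest of the 8, with a log2 fold change of −0.57 (SE 0.09, edgeR adjusted p = 6.7e-07). FH, on chromosome 1 from 241660811 to 241683099, had 102, 96.0 and 105 CPM with DMSO and 29.9, 31.3 and 35.7 CPM with THZ1. Fumarase is the hydratase that turns fumarate into malate, both in mitochondria and in the cytosol. FH kept 32.0% of its level, with a log2 fold change of −1.64 (SE 0.09, edgeR adjusted p = 3.1e-17). MDH2, which oxidizes malate to oxaloacetate, lies on chromosome 7 from 75677369 to 75696826 and had 209.8, 179 and 238 CPM with DMSO and 157, 151 and 157 CPM with THZ1. Its DMSO-treated libraries spread more widely (209 ± 29.4 CPM) than its THZ1-treated libraries (155 ± 3.65 CPM), and the lowest of them was still above the highest THZ1-treated library. The log2 fold change of MDH2 was −0.43 (SE 0.08, edgeR adjusted p = 1.1e-05), the smallest fall, and ran from −0.68 to −0.24 over the alternatives.

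Summed over the 9 enzymes, the level was 1252, 1193 and 1340.0 CPM with DMSO and 625, 632 and 636 CPM with THZ1, 50.0% of the DMSO mean. MYC, which the study links to metabolic enzymes, fell from 639 ± 27.0 to 86.1 ± 7.03 CPM in the same libraries (log2 fold change −2.89, SE 0.08, edgeR adjusted p = 3.2e-25). Gene spans ran from 5.83 kb for IDH3B, the gene that rose, to 102 kb for OGDH, the gene that fell most. Spearman's rho between span and log2 fold change was −0.43 over the 9 enzymes, −0.17 over these and the other tested cycle genes (20 in all) and −0.39 over 16092 genes tested with a span, and genes that share libraries are not independent points.

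Levels were compared between genes only per length, as FPKM taken back from the deposited log2 values, which cover 8 of the 9. With DMSO the order was IDH2 (333 ± 5.38 FPKM), MDH2 (166 ± 15.8), FH (135 ± 2.38), IDH3B (118 ± 5.54), CS (108 ± 7.07), OGDH (52.9 ± 2.96), SUCLG1 (48.4 ± 4.41) and IDH1 (32.3 ± 2.62). The libraries of IDH3B and CS overlapped, as did those of OGDH and SUCLG1, and the other neighbours in this order were apart. With THZ1 the order became IDH3B (149 ± 4.06 FPKM), MDH2 (108 ± 2.63), IDH2 (63.6 ± 1.45), CS (46.1 ± 2.13), FH (39.5 ± 3.95), SUCLG1 (30.5 ± 0.800), IDH1 (13.0 ± 1.86) and OGDH (3.60 ± 0.325), with overlap of CS and FH only. IDH2 stood at the top of the order with DMSO and IDH3B with THZ1. On the second length scale, CPM per kb of the canonical transcript, IDH3A was the lowest of the 9 with DMSO (13.9 ± 0.496) and OGDH the lowest with THZ1 (2.36 ± 0.175). On this scale IDH2 was also first with DMSO and IDH3B first with THZ1, but FH came after CS and IDH3B with DMSO. FH and SUCLG1 had overlapping libraries there, with means of 56.3 and 57.1 CPM per kb. The middle of the order thus depended on the length used.

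**Figure D2:**
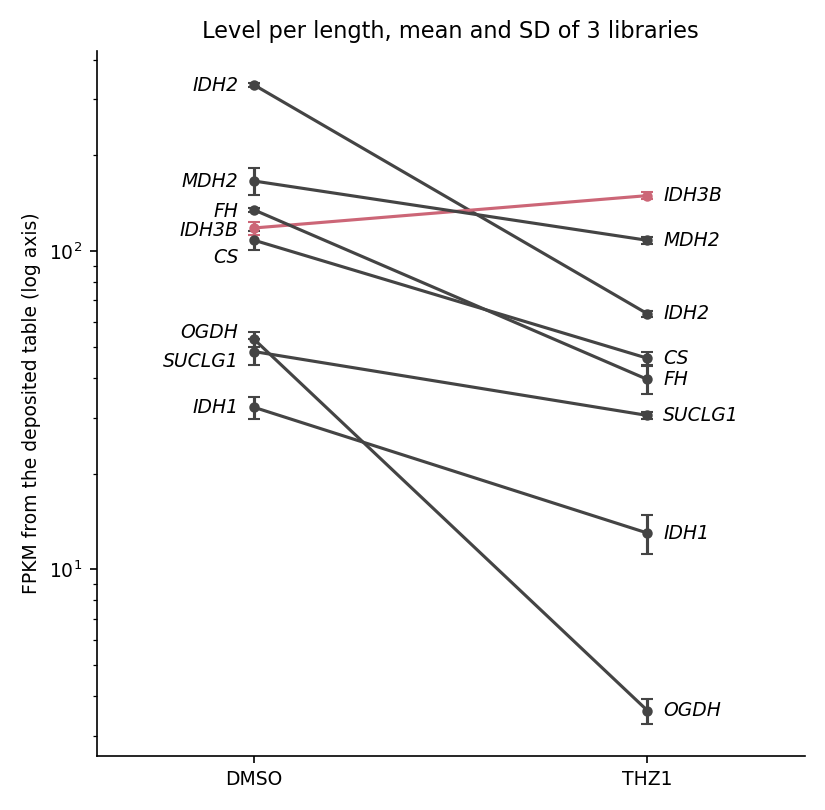
FPKM from the deposited table (log axis) of the 8 enzymes it covers, as mean and SD of 3 libraries with DMSO and with THZ1, joined by a line per gene. The line of IDH3B rises from 118 to 149 FPKM while the line of OGDH drops from 52.9 to 3.60 FPKM.

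Within complexes and pairs of isozymes, the partners were compared as the log2 ratio of their counts in each library, which does not depend on how libraries are scaled. Of 10 pairs listed, 8 could be computed. The libraries of the treatments did not overlap for 7 of these 8 pairs, and did not for 84.7% of single genes tested. The share over other gene pairs was not computed. Each of the 7 pairs without overlap had a two-sided exact permutation p = 0.1, the smallest that 3 libraries against 3 allow. After Benjamini-Hochberg adjustment over the 8 pairs, their permutation p-value was 0.114, so that no pair could pass 0.05. IDH3A over IDH3B went from −0.90, −0.84 and −1.01 with DMSO to −3.01, −2.50 and −2.75 with THZ1, a difference of −1.84 (SE 0.16). IDH3A over IDH3G, the gene of the regulatory gamma subunit, differed by −1.54 (SE 0.11), whereas IDH3B over IDH3G differed by 0.30 (SE 0.08). The ratio of the alpha subunit to either of the other subunits was lower in each THZ1-treated library than in each DMSO-treated one. OGDH over DLST, the E2 subunit of the same complex, went from 0.11, −0.22 and −0.03 to −3.15, −3.25 and −3.41, a difference of −3.23 (SE 0.12), or 9.36-fold.

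For the NADP-dependent pair, IDH1 over IDH2 was −2.54, −2.35 and −2.75 with DMSO and −1.57, −1.63 and −1.27 with THZ1, a difference of 1.06 (SE 0.16). IDH2 over IDH3A differed by −0.88 (SE 0.11). MDH2 over MDH1, the cytosolic malate dehydrogenase, went from 0.54, 0.35 and 0.56 to 1.31, 1.30 and 1.20, a difference of 0.79 (SE 0.07). In SUCLG1 over SUCLA2, the ratio was 0.14, 0.25 and 0.40 with DMSO and 0.22, 0.21 and 0.17 with THZ1. This was the single pair with overlapping libraries, with a difference of −0.07 (SE 0.08, 95% interval −0.28 to 0.15, exact permutation p = 0.5). The remaining 2 listed pairs involve SUCLG2, the subunit that makes the ligase GTP-specific, which held 0 counts in 5 libraries and 1 count in the sixth. SUCLA2, the subunit of the ADP-forming ligase, was the only beta subunit detected above the floor.

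**Figure D3:**
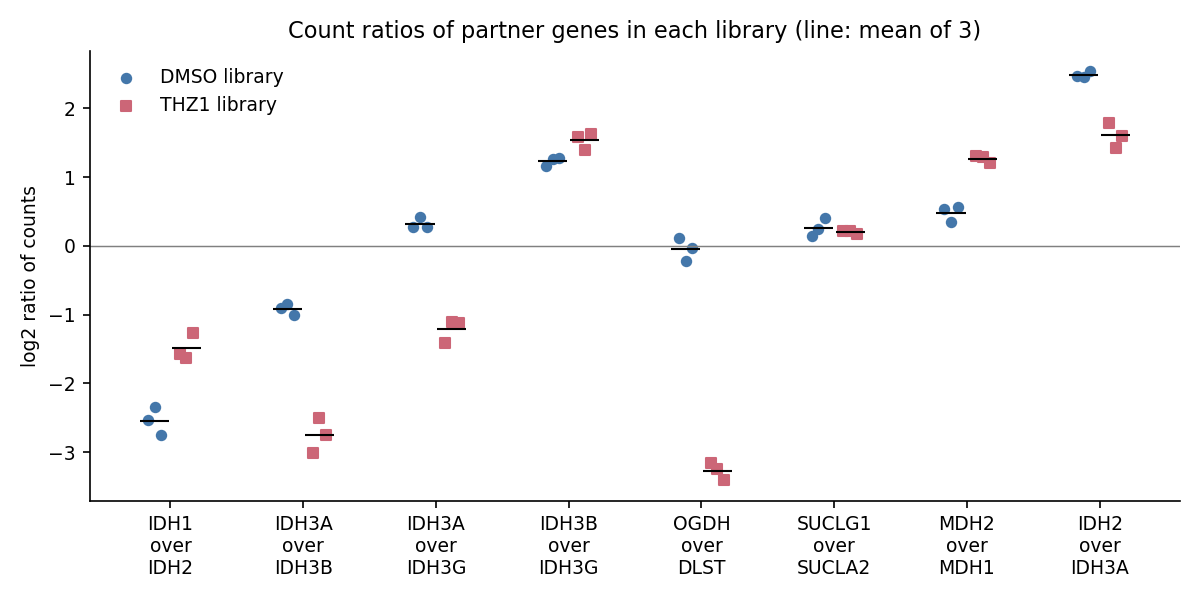
Log2 ratio of counts for 8 pairs of partner genes in each DMSO-treated (circles) and THZ1-treated library (squares), with a line at the mean of 3 libraries. OGDH over DLST drops from −0.04 to −3.27 and IDH3A over IDH3B from −0.92 to −2.75, while the libraries of SUCLG1 over SUCLA2 overlap.

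Per kb of transcript, IDH2 made up 45.6%, 46.1% and 46.3% of the summed level of the 5 isocitrate dehydrogenase genes with DMSO, and 14.1%, 14.7% and 14.4% with THZ1. IDH3B made up 26.5%, 25.8% and 27.6% with DMSO and 56.3%, 53.0% and 55.1% with THZ1. IDH3G went from 13.0 ± 0.627% to 21.8 ± 1.43%, IDH1 from 9.08 ± 1.24% to 5.90 ± 0.837% and IDH3A from 5.32 ± 0.136% to 3.08 ± 0.451% (SD, n = 3 each). No share of one treatment overlapped with the other, and 84.7% of single genes tested did not overlap in level either. Shares within other gene families were not computed. The shares sum to 100% in each library, so they do not move independently. They also depend on the length used. With DMSO, IDH2 and IDH3B had 333 and 118 FPKM in the deposited values, which lack IDH3A, against 120 and 69.4 CPM per kb here.

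**Figure D4:**
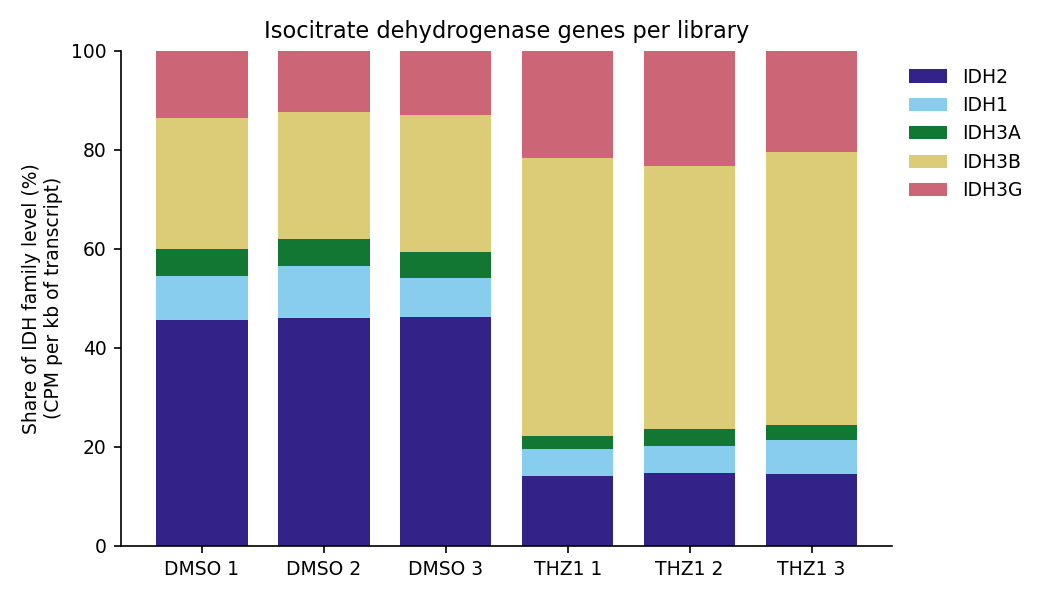
Share (%) of each isocitrate dehydrogenase gene in the summed CPM per kb of the 5 genes, 1 bar per library. IDH2 takes 46.0% with DMSO and 14.4% with THZ1 on average, and IDH3B 26.6% and 54.8%.

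The other genes of the cycle gave the frame for these enzymes. Of 13 such genes listed, 11 were tested, of which 8 were lower, 2 higher and 1 was not called. The shares over all genes tested were 41.1% lower and 43.5% higher. The median log2 fold change of these 11 genes was −0.56, against 0.03 over all genes tested. Their summed level was 65.9% of the DMSO mean after THZ1, against 50.0% for the 9 enzymes. ACO1, the cytosolic aconitase, fell by 0.86 on the log2 scale (SE 0.11). DLD, the E3 subunit that the dehydrogenase complexes share, fell by 1.08 (SE 0.08), while DLST, at 102 ± 5.15 CPM under DMSO and 95.9 ± 1.59 CPM under THZ1, was not called (log2 fold change −0.08, edgeR adjusted p = 0.302). The result for DLST depended on the scaling: it was called lower with library sizes alone (−0.33, edgeR adjusted p = 0.000189) and in the deposited values (−0.20, limma adjusted p = 0.0149), and its value was 0.11 with upper quartile factors. SUCLA2 fell by 0.50 (SE 0.09).

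Succinate dehydrogenase links the cycle to the respiratory chain. Its catalytic subunits SDHA and SDHB fell by 0.84 and 0.82 (SE 0.07 and 0.09), and the membrane subunit SDHC fell by 0.40 (SE 0.09). The other membrane subunit, SDHD, rose by a log2 fold change of 0.47 (SE 0.10), from 40.5, 35.5 and 41.9 CPM to 63.9, 48.6 and 50.9 CPM, with THZ1 replicate 1 the highest. Over the alternatives SDHC ran from −0.82 to −0.20 and SDHD from 0.23 to 0.67, both still called. IDH3G was called higher, at 0.23 (SE 0.09, edgeR adjusted p = 0.0231), but the call was lost without DMSO replicate 2 (0.13) and without THZ1 replicate 1 (0.23) or 2 (0.16), with no filter (0.14) and in the deposited values (0.14), and with library sizes alone the value turned to −0.02. MDH1 fell by 1.21 (SE 0.08). OGDHL, a paralog of OGDH, held 0 counts in all 6 libraries, which allows at most 0.253 CPM with DMSO and 0.415 CPM with THZ1.

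**Figure D5:**
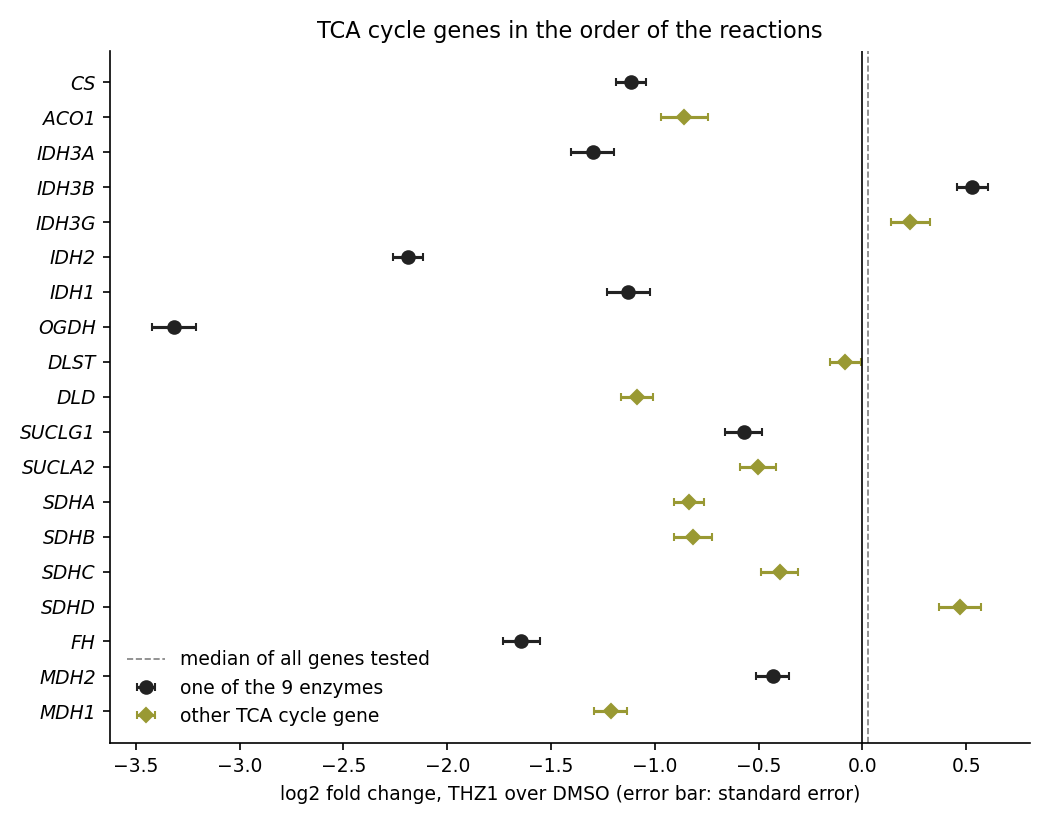
Log2 fold change, THZ1 over DMSO, of the 9 enzymes (circles) and 10 of the 11 other tested TCA cycle genes (diamonds) in the order of the reactions, with their SE as bars, and a dashed line at the median of all genes tested (0.03). OGDH (−3.31), IDH2 (−2.19) and FH (−1.64) lie farthest left, and IDH3B (0.53), SDHD (0.47) and IDH3G (0.23) lie to the right of 0, the last turning to −0.02 with library sizes alone.

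Around the cycle, 41 linked genes were listed and 37 tested, of which 24 were lower, 7 higher and 6 not called. By the same rule 41.1% of all genes tested were lower and 43.5% higher. The median log2 fold change of the linked genes was −0.50, against 0.03 over all genes tested. For the entry of pyruvate, MPC1, a subunit of the mitochondrial pyruvate carrier, had the lowest value, −2.35 (SE 0.16, from 28.7 ± 4.50 to 5.60 ± 0.339 CPM). PDP1, a phosphatase that activates pyruvate dehydrogenase, had the highest of that group, 0.78 (SE 0.13), but was not called in the deposited values (0.31, limma adjusted p = 0.0677). Among genes of glutamine, aspartate and malate, ME2, the mitochondrial malic enzyme, fell by 3.13 (SE 0.10, from 118 ± 3.49 to 13.4 ± 1.64 CPM). GLS2, a glutaminase, rose by 2.63 (SE 0.15), from 4.54 ± 0.394 to 28.1 ± 3.07 CPM.

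Among the carriers, SLC25A22, which carries glutamate into mitochondria, had 85.0, 77.2 and 85.2 CPM with DMSO and 469, 487 and 467 CPM with THZ1 (log2 fold change 2.52, SE 0.07, edgeR adjusted p = 1.8e-24). GLS2 and SLC25A22 were the 2 linked genes that rose past 1.5 on the log2 scale, as 24.6% of all genes tested did. SLC25A12, an aspartate-glutamate carrier, was the lowest of the carriers, at −1.25 (SE 0.10). LIAS, which makes the lipoyl group that DLST and the pyruvate dehydrogenase complex need, fell by 1.60 (SE 0.14), and LIPT2, which attaches octanoyl groups before it, was called higher at 1.03 (SE 0.23), from only 3.27 ± 0.414 CPM. LIPT2 was not called in the deposited values (0.27, limma adjusted p = 0.195), and LIAS ran from −2.75 to −1.41 over the alternatives. The listed genes PDK4, GLUD2, ME1 and PCK1 were too low to be tested.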

How the data were processed

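Gene expression of NALM6 was measured by RNA-SEQ in 3 DMSO and 3 THZ1 libraries. The deposited counts are raw whole reads per gene: the authors filtered the reads, aligned them with STAR to GRCh37 and ran htseq-count. The annotation and strand setting are not given in the sources used here. A second deposited table holds FPKM values by RSEM on a log2 scale, read as log2(FPKM + 1), whose sorted values differed within a treatment by a median of only 0.00150 to 0.00170. It also holds p-values, FDR values and log2 fold changes of the authors' own comparison, which were not used.

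Counts were filtered by filterByExpr (minimum count 10, minimum total 15), scaled by TMM and tested two-sided by edgeR's quasi-likelihood test. A gene was called at an adjusted p-value below 0.05. Each SE is the absolute log2 fold change over the square root of its F. Partner ratios were log2 of counts plus 0.5, with 95% intervals from the pooled spread of the libraries (normal errors assumed). Replicates differed by more than sampling noise (chi-square per gene 1.78 to 9.19). The study's general statistics statement speaks of independent experiments, without naming the RNA-SEQ libraries, and the labels do not say whether these were separate cultures, so p-values measure only the spread between these libraries. TMM assumes that most genes keep their share, whereas 41.1% of genes tested were called lower and 43.5% higher at any fold. Whether the assumption held was not tested. Precision was limited by 3 libraries a treatment.

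The enzymes and lists were chosen with earlier results of these data known. The text names the 9 enzymes, the other listed TCA cycle genes (1 of them is not reported here by itself, only within the counts and sums of its list), the highest and lowest called gene and the untested genes of each linked list, and MYC. ACSBG1, CNPY2-AS1 and IDH1-AS1 were named after their counts were seen, because they overlap an enzyme.

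Coordinates, spans and transcript lengths came from GENCODE 44 mapped to GRCh37. Alternatives were RLE, upper quartile or no factors, DESeq2, other filters, a replicate block, each library left out, and limma on the deposited log2 values (mean FPKM of at least 0.1, or no filter) or with a pseudocount of 0.1. The tests were checked on simulated data in which 16060 of 16255 genes tested were left unchanged. There edgeR called 47% of changed genes in the right direction at a true log2 fold change of 0.5. At 1 it called 87.7%, and at 2 it called 100%. Of the unchanged genes, 0.0374% were called. The simulation gave every gene the same preset dispersion and did not probe TMM where most genes change. Its rates may thus not hold for these libraries. R 4.3.3, edgeR 4.0.16, limma 3.58.1, DESeq2 1.42.0, Python 3.11.15, scipy 1.17.1, pandas 2.3.3 and matplotlib 3.10.9 were used. The study's other assays were not analysed here.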

Additional observations from a re-analysis of the deposited data

How the results depend on the processing

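All 9 enzymes kept their direction and stayed past the threshold under every alternative that held them (16, or 13 for IDH3A, which is absent from the deposited log2 table). Their median log2 fold change was −1.06 with RLE factors and with DESeq2, −0.93 with upper quartile factors, −1.38 with library sizes alone, −0.996 where only genes of at least 10 counts in each library were kept, −1.21 with no filter, −1.23 in the deposited log2 values with or without the filter, −1.27 with a pseudocount of 0.1, and −1.25 to −1.08 with each library left out. Against TMM the median of all genes shifted by 0.19 with upper quartile factors, −0.25 with library sizes alone, 0.13 under that filter and −0.26 in the deposited values. When calls also had to reach 1.5 on the log2 scale, 3 enzymes were lower and 0 higher, and 2142 genes of all were lower and 4088 higher. These counts are those with TMM. Under other scaling FH fell short of 1.5 (−1.45 with upper quartile factors) and IDH3A passed it (−1.55 with library sizes alone). Of the other cycle genes, 1 rather than 2 was called higher with library sizes alone, no filter and each limma fit, and 1 to 2 with each library left out. Of the linked genes, 4 rather than 7 were higher in each limma fit. IDH3G turned to −0.0163 with library sizes alone, and DLST, not called, to 0.11 with upper quartile factors and 0.0503 under the stricter filter, while it was called lower with library sizes alone (−0.33) and in each limma fit (−0.20 and −0.21). PDP1 and LIPT2 were not called in the limma fits. The change of SUCLG1 over SUCLA2, not called, turned to 0.0652 in the deposited values, and with each library left out, an alternative chosen after seeing the data, it ran from −0.129 to 0.0039, the last without DMSO replicate 3. The cause was not tested.

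The replicate numbers of the treatments did not pair the libraries (correlations of same-numbered deviations −0.00400, 0.000969 and 0.0206). Under the replicate block the median of the enzymes was −1.13, with 8 lower and 1 higher, and of all genes 6786 were lower and 7181 higher. Too low to be tested were 2 of the 13 other cycle genes and 4 of the 41 linked genes, for which low expression and limited depth cannot be told apart.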
